A study of Mus musculus with 2 samples.

Results

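Proliferating macrophages of the mouse lung were followed in 2 single-cell libraries of living CD45+ leukocytes. The BLM library came from lungs of C57BL/6N mice on day 15 after intratracheal bleomycin, which damages the lung and is used as a model of fibrosis, and the naive library from untreated lungs of the same strain. Both groups were wild type, the methods give an age of 10 to 16 weeks for mice given bleomycin, and each library pooled cells of 3 mice. Cells needed at least 200 genes and no more than 15% of UMIs (unique molecular identifiers, 1 per captured transcript) from mitochondrial genes. A cell was called a proliferating macrophage when Mki67, Top2a, Birc5 and Ube2c together held 4 or more UMIs, when 8 macrophage genes (Plet1, Car4, Atp6v0d2, Marco, C1qa, C1qb, C1qc and Ms4a7) together held 10 or more, and when Cd3e, Cd3d and Cd3g together held at most 1. This gave 165 of the 8776 barcodes of both libraries, 123 of 4714 in BLM and 42 of 4062 in naive. Each group was 1 library, so nothing was replicated or tested, and library and group cannot be told apart. Every interval below is a 95% interval that covers counting error only, not differences between mice, libraries or cells.

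Tissue macrophages are differentiated cells that can still divide. Alveolar macrophages, which clear surfactant from the airspaces, renew themselves in place under the growth factor GM-CSF, and interstitial macrophages respond to M-CSF through the receptor Csf1r. After injury, monocytes enter the lung, become macrophages and may divide as well. A cell that divides first copies its DNA in S phase, with the Mcm helicase, Pcna and the enzymes that make deoxynucleotides, and then passes through G2 and mitosis, when cyclin B, Cdk1, kinesins and kinetochore proteins are at work. Mki67 is a coat protein of mitotic chromosomes, Top2a untangles DNA, Birc5 (survivin) belongs to the chromosomal passenger complex and Ube2c marks mitotic proteins for destruction.

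The 4 cycle genes of the rule are late cell cycle genes, and their promoters are shown because the comparison of S phase with mitosis below rests on cells chosen by them. The sequences are the 120 bases before the RefSeq start (build GRCm38.p6), read 5′ to 3′ on the strand of the gene. Capitals mark matches, on either strand, to the cell cycle homology region (CHR, TTTGAA), the CCAAT box (CCAAT) or an E2F-like site (TTCCCGCC or TTTGGCGC). The DNA replication genes Pcna and Mcm5 and the mitotic genes Cdk1 and Ccnb1 are set beside them.
Mki67, chr7:135716380-135716499, minus strand: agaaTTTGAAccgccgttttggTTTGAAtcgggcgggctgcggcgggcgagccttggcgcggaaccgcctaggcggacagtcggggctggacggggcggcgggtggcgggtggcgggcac
Top2a, chr11:99024190-99024309, minus strand: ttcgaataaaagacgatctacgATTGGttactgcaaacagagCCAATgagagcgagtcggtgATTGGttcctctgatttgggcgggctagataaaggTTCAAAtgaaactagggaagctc
Birc5, chr11:117849117-117849236, plus strand: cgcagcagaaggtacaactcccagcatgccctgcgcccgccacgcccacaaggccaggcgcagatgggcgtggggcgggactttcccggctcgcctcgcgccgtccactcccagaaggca
Ube2c, chr2:164769809-164769928, plus strand: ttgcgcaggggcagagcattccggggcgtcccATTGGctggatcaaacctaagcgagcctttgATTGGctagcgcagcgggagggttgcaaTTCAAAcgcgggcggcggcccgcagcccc
Cdk1, chr10:69352913-69353032, minus strand: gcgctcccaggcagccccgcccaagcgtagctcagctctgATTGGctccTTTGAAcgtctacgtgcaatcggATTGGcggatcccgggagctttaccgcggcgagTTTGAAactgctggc
Ccnb1, chr13:100786487-100786606, minus strand: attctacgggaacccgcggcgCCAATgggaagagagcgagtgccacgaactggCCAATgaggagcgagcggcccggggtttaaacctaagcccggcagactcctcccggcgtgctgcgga
Pcna, chr2:132253181-132253300, minus strand: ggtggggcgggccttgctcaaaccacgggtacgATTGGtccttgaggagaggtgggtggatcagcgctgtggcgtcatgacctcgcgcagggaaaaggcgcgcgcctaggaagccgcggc
Mcm5, chr8:75109389-75109508, plus strand: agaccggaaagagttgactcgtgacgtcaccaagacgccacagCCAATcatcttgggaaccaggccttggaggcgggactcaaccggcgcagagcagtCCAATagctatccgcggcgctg

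Top2a, Ube2c and Cdk1 held a CHR and a CCAAT box within these windows, Mki67 held 2 CHR matches, Pcna, Mcm5 and Ccnb1 held CCAAT boxes without a CHR, and the Birc5 window held none of the searched letters. Over the 250 bases before the start, 35.1% of the 57 promoters of the G2 and mitosis list held a CHR, against 14.6% of the 48 promoters of the S phase list and 15.99% of all 32851 promoters. A CCAAT box was found in 71.9%, 56.2% and 33.8%, and an E2F-like site in 5.26%, 14.6% and 2.25% of the same promoters. RefSeq entries were matched for 54 of 69 G2 and mitosis genes and 39 of 50 S phase genes. A match is a description of letters and not a measured binding site.

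The values that chose the members are given as a description. The 4 cycle genes held a median of 20 UMIs per cell in BLM (range 4 to 117) and 32 in naive (range 4 to 125). Cells close to the limit were few: 15 BLM and 4 naive members had exactly 4 cycle UMIs, while 21 BLM and 9 naive macrophages with exactly 3 stayed outside. In 84 of the 123 BLM members and 33 of the 42 naive members the sum was 10 or more. Mki67 itself was seen in 113 of 123 and 41 of 42 members, Top2a in 103 and 38, Birc5 in 103 and 35, and Ube2c in 90 and 32. No cycling BLM cell and 2 cycling naive cells had 8 or 9 macrophage UMIs, just short of the limit, and 2 BLM members and no naive member had 10 or 11. Another 3 BLM cells and 1 naive cell met both UMI limits but had more than 1 Cd3 UMI.

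The members were compared with macrophages that passed the same macrophage and Cd3 limits and had no UMI of the 4 cycle genes, 624 in BLM and 525 in naive, called non-cycling macrophages here. Members were the deeper cells. Their median was 15705 UMIs in BLM and 14770.5 in naive, against 10729 and 9247 in non-cycling macrophages. The tables shared 22 cell barcodes by number, 1 of them a member. Genes of macrophage identity that the rule did not use were present: Csf2rb, a GM-CSF receptor chain, had a UMI in 119 of 123 BLM and 39 of 42 naive members, and Csf1r in 113 and 31. In B cells, which should lack Csf1r and are shallower (medians of 1788 and 1969 UMIs), Csf2rb had a UMI in 21.5% of BLM and 18.3% of naive cells and Csf1r in 6.00% and 5.23%. Csf2rb was at 856 and 729 CPM in BLM and naive members and 169 and 125 CPM in the B cells, and Csf1r at 365 and 184 CPM and 31.00 and 26.6 CPM.

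Markers of other cell types were counted over lists of 5 or 6 genes. No member had 5 or more UMIs of the T cell list beside Cd3, which allows a share of up to 2.95% in BLM and 8.41% in naive. The mast cell and basophil markers Mcpt8, Ms4a2, Fcer1a and Gata2 were at 0 in both sets of members. The B cell list reached that limit in 1 BLM and 1 naive member, the NK cell list in 0 and 1, the dendritic cell list in 10 and 2, the epithelial list in 1 and 1 (Sftpb at 0 in both) and the stromal or endothelial list in 1 and 0. The plasma cell list reached it in 26 and 12 members, with 306 of its 369 UMIs in BLM and 141 of 155 in naive from Xbp1, which is also expressed outside plasma cells. All 6 neutrophil markers were detected, at 383 counts per 1000000 UMIs (CPM) in BLM members, 292 in BLM non-cycling macrophages, 181 in naive members and 273 in naive non-cycling macrophages. Of the BLM members, 20.3% had 5 or more neutrophil UMIs (highest cell, 271) against 12.3% of BLM non-cycling macrophages, and of the naive members 14.3% (highest cell, 10) against 8.57%. Their part in the results was not tested.

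In the BLM library 123 of 1015 macrophages were proliferating, 12.1% (10.2 to 14.3), and in the naive library 42 of 742, 5.66% (4.11 to 7.57). Macrophages were assigned to an alveolar arm where Plet1, Car4, Atp6v0d2 and Marco held more UMIs than the C1q genes and Ms4a7, and to a C1q arm in the opposite case. The alveolar arm held 82 proliferating cells of 531 in BLM, 15.4% (12.5 to 18.8), and 38 of 652 in naive, 5.83% (4.16 to 7.91). In the C1q arm the shares were 41 of 475, 8.63% (6.27 to 11.5), and 4 of 90, 4.44% (1.22 to 10.99). These intervals cover counting error over cells of 1 library per group, so whether they overlap is not a test of the groups. The 4 cycle genes of the rule also set these shares. As background, 4 or more cycle UMIs occurred in 1.59% of 567 BLM B cells and 0.940% of 745 naive B cells, whose medians were 1788 and 1969 UMIs.

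The size of this difference moved with depth. BLM macrophages had a median of 11633 UMIs and naive macrophages 9603. With every macrophage thinned to 5000 UMIs (86 BLM and 72 naive cells below that depth left out), 8.50% (6.79 to 10.5) of BLM and 4.78% (3.29 to 6.68) of naive macrophages still had 4 or more cycle UMIs, and in the alveolar arm 10.2% (7.69 to 13.1) and 4.69% (3.16 to 6.67). In the C1q arm the shares at that depth were 27 of 411, 6.57% (4.37 to 9.41), and 3 of 52, 5.77% (1.21 to 15.9). The share with any cycle UMI at 5000 UMIs was 25.8% in BLM and 20.1% in naive over all macrophages, 28.4% and 19.3% in the alveolar arm, and 23.1% (19.1 to 27.5) and 30.8% (18.7 to 45.1) in the C1q arm, where naive stood higher with overlapping intervals. Thinned to 2000 UMIs, with 19 BLM and 6 naive cells left out, 3.92% (2.80 to 5.31) and 3.40% (2.21 to 4.97) had 4 or more cycle UMIs. With that limit at that depth the shares stood close together. The share with any cycle UMI at 2000 UMIs was 18.4% (16.01 to 20.9) in BLM and 11.4% (9.21 to 13.9) in naive. Another setting left out macrophages with 5 or more UMIs of other lineages, 624 in BLM and 598 in naive, and the shares were 7.93% and 6.94%. Here and below these UMIs were summed over all marker lists of other cell types except the dendritic cell list. The sum was not adjusted for depth. That limit removed 61.5% of BLM and 80.6% of naive macrophages. With Xbp1 and Epcam not counted, a choice made after seeing the data, it kept 621 and 429 cells and the shares were 10.6% and 3.96%.

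**Figure D1:**
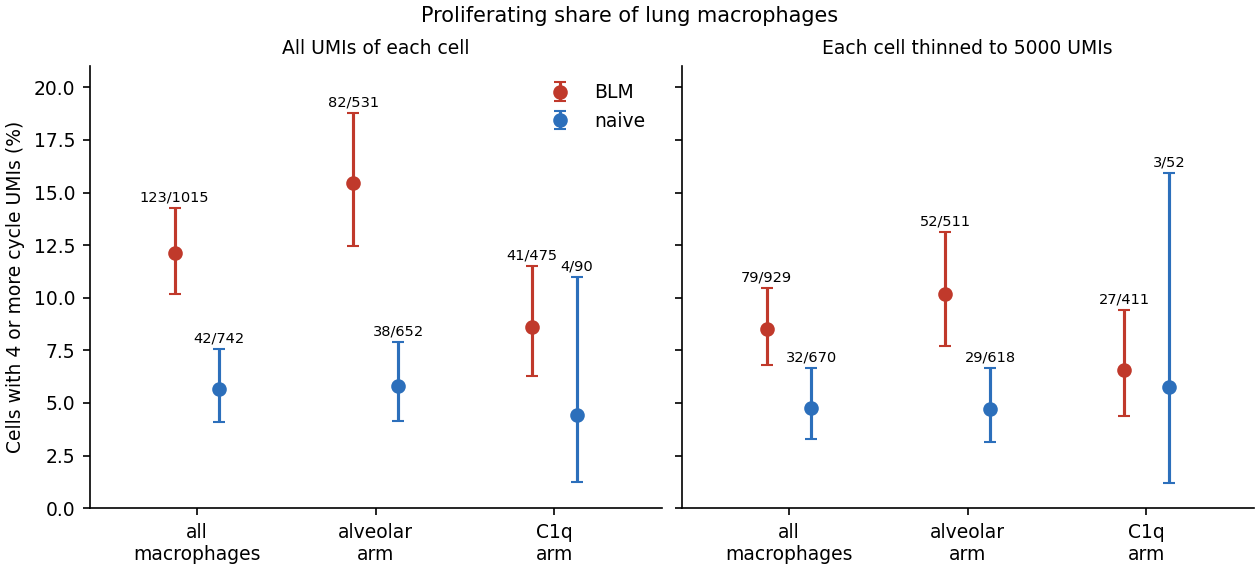
Share of macrophages with 4 or more UMIs of Mki67, Top2a, Birc5 and Ube2c (y axis, percent) in all macrophages and in each arm (x axis), for BLM and naive, at full depth (left) and after thinning to 5000 UMIs (right); points are shares, bars are exact 95% intervals and labels are cells. The BLM alveolar arm stands highest, at 15.4% and 10.2%, and the naive C1q arm rests on 4 and 3 cells.

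The arms of the members were set beside those of the non-cycling macrophages. They were cut by rule genes, so these shares are a description. The alveolar arm held 82 of 123 BLM members, 66.7% (57.6 to 74.9), against 305 of 624 non-cycling macrophages, 48.9% (44.9 to 52.9). In naive it held 38 of 42 members, 90.5% (77.4 to 97.3), and 458 of 525 non-cycling macrophages, 87.2% (84.1 to 90.0). Without cells that carried 5 or more UMIs of other lineages the alveolar arm held 41.9% of the 31 BLM members left, and with Xbp1 and Epcam not counted 65.2% of 66. The matching shares of non-cycling macrophages are not given. Cells with 3 or more UMIs of both arms were common in BLM, 48.8% (39.7 to 58.0) of members and 45.5% (41.6 to 49.5) of non-cycling macrophages, and less so in naive, 9.52% (2.66 to 22.6) and 4.95% (3.26 to 7.17). After thinning to 5000 UMIs the same shares were 29.5% and 27.5% in BLM and 4.88% and 1.94% in naive. Whether these were single cells with both sets of genes, doublets or cells with free RNA was not tested.

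Cell cycle genes were compared between members and non-cycling macrophages of the same library. The rule chose members by 4 such genes, so these values describe the members and test nothing. Genes were counted if the sides together held at least 50 UMIs and at least 10% of cells on the side with the higher level had one, and were called at 2-fold. In BLM 7.11% of 8161 genes were called higher in members and 1.42% lower, and in naive 5.88% and 2.28% of 7838. All 44 counted genes of the S phase list were called higher in BLM and all 34 in naive, with median log2 ratios of 2.89 and 2.31. Of the G2 and mitosis list, 63 of 65 and 51 of 52 were called higher, with medians of 5.15 and 5.28, against medians over all counted genes of 0.08 and 0.04.

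Among replication genes, Uhrf1, which helps to copy DNA methylation, was at 78.02 CPM in BLM members and 0.995 CPM in BLM non-cycling macrophages, and at 82.6 and 1.39 CPM in naive. The checkpoint adaptor gene Clspn was at 60.5 and 0.568 CPM in BLM and 65.4 and 3.77 CPM in naive. The helicase gene Mcm5 stood at 125 CPM (110.2 to 141) in BLM members and 93.5 CPM (71.3 to 120.3) in naive members, against 9.81 and 10.9 CPM in the non-cycling cells. Ccne2, Dtl, Cdc6 and Mcm10 completed the highest S phase genes in BLM, and Prim1, Mcm7 and Lig1 those in naive. Of the mitotic genes, Ccna2 (cyclin A) was at 207 and 1.28 CPM in BLM and 293 and 1.79 CPM in naive. The spindle checkpoint kinase gene Bub1 was at 77.5 and 0.568 CPM in BLM and 143 and 0.397 CPM in naive. Nusap1, Nuf2, Spc25 and Spc24 in BLM, and Nusap1, Nuf2, Hmmr and Pbk in naive, were the other genes highest on this list.

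Pclaf, a PCNA-binding factor, led the genes outside the cycle lists in both libraries. It was at 811 CPM (773 to 850.2) in BLM members and 678 CPM (616 to 744) in naive members, against 8.53 and 8.34 CPM in non-cycling macrophages. Stil, Neil3, Depdc1a, Cenph, E2f7, Esco2 and Prr11 followed in BLM, and Iqgap3, Prr11, Cep55, Asf1b, Cenph and Fbxo5 in naive. The nucleotide synthesis list had 14 of 19 genes called higher in BLM and 10 of 19 in naive, with 1 (Cad) lower in naive. Its member Rrm2, the regulated subunit of ribonucleotide reductase, was at 266 and 274 CPM in BLM and naive members and at 2.56 and 1.79 CPM in non-cycling cells. Of the DNA repair and checkpoint list 16 of 18 and 7 of 12 were called higher.

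Genes that gate entry into the cycle did not follow a single pattern. Over all counted genes 7.11% were called higher in BLM members and 5.88% in naive, and 1.42% and 2.28% lower. Of the list of cyclins, CDK inhibitors, E2F factors and growth brakes 14 of 33 were called higher and 1 lower in BLM members. In naive members 9 of 27 were called higher and 0 lower. Cdkn2c, an inhibitor of Cdk4 and Cdk6, was at 46.8 and 49.9 CPM in BLM and naive members against 3.55 and 2.78 CPM in non-cycling cells. Cdkn1a (p21), which can arrest cells, was abundant in both, at 1075 CPM (1031 to 1119.9) in members and 997 CPM (974 to 1021) in non-cycling cells of BLM and 776 CPM (709 to 847) and 658 CPM (635 to 680.4) in naive. None of 22 counted p53 targets in BLM and of 19 in naive was called higher, and 1 (Zmat3, in naive) was called lower. Myc was at 8.51 and 13.6 CPM in BLM and 23.4 and 18.9 CPM in naive, and Ccnd1 at 39.7 and 44.3 CPM and 38.9 and 26.2 CPM. Of the macrophage growth factors and receptors, 0 of 17 genes in BLM and 0 of 15 in naive were called in either direction, with medians of -0.39 and -0.31. Csf2rb was at 856 and 1149 CPM in BLM and 729 and 976 CPM in naive, and Csf1r at 365 and 511 CPM and 184 and 228 CPM.

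**Figure D2:**
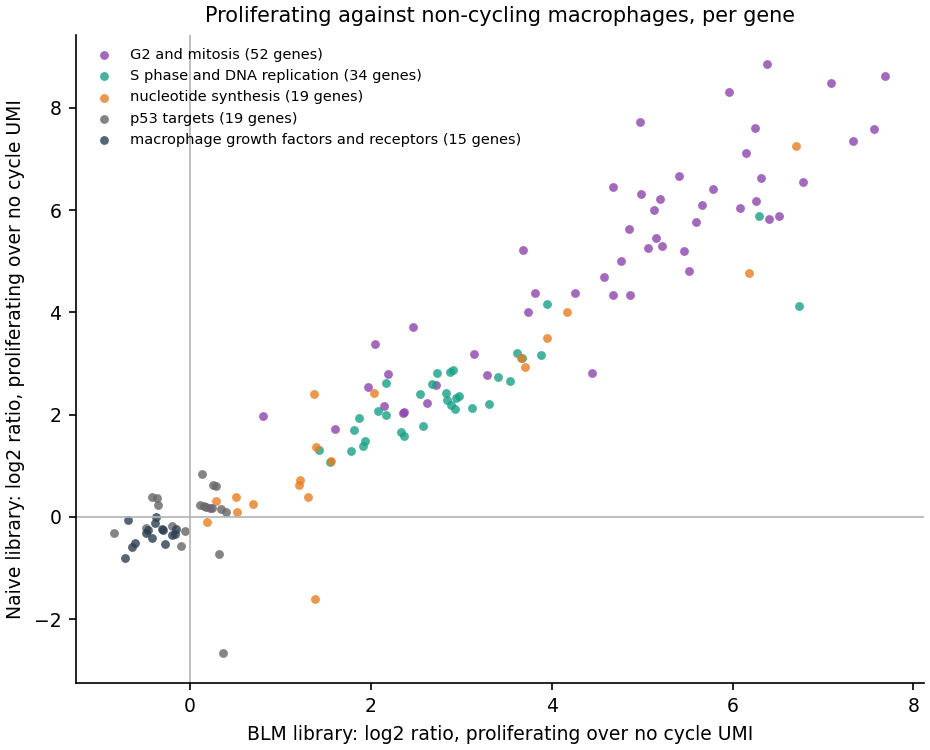
log2 ratio of CPM in proliferating over non-cycling macrophages for each gene of 5 lists that was counted in both libraries, in the BLM library (x axis) and the naive library (y axis). Genes of G2 and mitosis reach the highest ratios. Over all genes counted in each library the list medians are 5.15 and 5.28 for mitosis and 2.89 and 2.31 for S phase, and those of macrophage growth factors and receptors are -0.39 and -0.31.

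Fewer genes were called lower in members than higher. The transcription factor gene Maf was not called in either library. It was at 90.8 and 112 CPM in BLM members and non-cycling macrophages and 49.9 and 71.3 CPM in naive. In BLM the lowest genes were Retnla, Ccl24, Hbegf, Inhba, Tcp11l2, Thbs1, Vegfa and Apoe. The chemokine gene Ccl24 was at 14.2 and 171 CPM in members and non-cycling cells, the angiogenic factor gene Vegfa at 32.6 and 109.6 CPM, and the lipid carrier gene Apoe at 973 and 2632 CPM. The arms are not equally frequent in members and non-cycling cells of BLM. Within the alveolar arm alone Apoe was at 159.6 and 319.6 CPM, still called lower. Without cells that carried 5 or more UMIs of other lineages, the log2 ratio of Apoe turned to 0.11.

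In naive the lowest were Hspa1b, Hspa1a, Klc4, Kcnq1ot1, Mdp1, Hpgd, Clec4n and Ear2. The heat shock gene Hspa1a was at 18.7 and 135 CPM in naive members and naive non-cycling cells, and at 17.02 and 31.4 CPM in BLM. Hspa1a and Hspa1b, like Ear1 and Ear2, are near-identical copies between which the authors' counting could split reads, so their values are uncertain.

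S phase and mitosis were then compared between the libraries. The summed S phase list was at 3540.2 CPM (3460.4 to 3621) in BLM members and 3653 CPM (3507 to 3804) in naive members. The summed G2 and mitosis list was at 7535 CPM (7419 to 7653) in BLM members and 12437 CPM (12166 to 12713) in naive members, a log2 ratio of -0.72. The ratio of S phase to mitotic UMIs was 0.470 in BLM and 0.294 in naive. In single members the S phase list had a median of 27.6 per 10000 UMIs in BLM (range 0 to 87.5) and 29.1 in naive (3.20 to 86.7), and the mitotic list a median of 72.2 (4.41 to 247) and 130.2 (5.43 to 332). The ranges of single cells overlapped widely. Members with more S phase than mitotic UMIs made up 18.7% (12.2 to 26.7) in BLM and 14.3% (5.43 to 28.5) in naive.

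Members were also split by their cycle UMIs, which the rule used and which are tied to the mitotic list, so these values are a description. The 84 BLM and 33 naive members with 10 or more cycle UMIs had 9415 and 14899 CPM of the mitotic list. The 39 BLM and 9 naive members with 4 to 9 had 2397 and 2764 CPM. Of the 67 counted genes of the list, 24 were called lower in BLM members and 0 higher, with a median log2 ratio of -0.80, where 6.9% of 6362 genes were called lower and 4.57% higher and the median was -0.14. Ccnb1 (cyclin B) was at 70.5 CPM (59.6 to 82.7) in BLM and 169.8 CPM (139 to 205) in naive members, whereas its partner Cdk1 was at 198 CPM (179.6 to 218) and 223 CPM (188 to 262). In non-cycling macrophages the summed mitotic list was at 757 CPM in BLM and 1002 CPM in naive, with 6 of 18 genes called lower, 2 higher and a median of -0.84. Over all 7692 genes counted in non-cycling macrophages 7.98% were called lower and 5.21% higher, with a median of -0.22. In the S phase list of the members 0 of 44 genes were called lower and 1 higher, with a median of -0.05. Pcna, the sliding clamp of DNA polymerases, was at 414 CPM (387 to 443) and 466 CPM (415 to 522). The summed S phase list of non-cycling macrophages was at 571 CPM in BLM and 747 CPM in naive. There 1 of 18 genes was called lower, where 7.98% of all genes were, with a median of -0.58. The mitotic list of the members was also lower within the alveolar arm, 6997 CPM (6861 to 7136) in BLM and 12952 CPM (12661 to 13247) in naive. The C1q arm of BLM was at 8655 CPM (8436 to 8878), and the 4 naive cells of that arm were at 7355 CPM (6679 to 8081), so there the direction was the opposite. With members that carried a Cd3 UMI left out, 13 of the 64 genes still counted were called lower, with a median of -0.66 and a summed log2 ratio of -0.66. The rule chose cells by 4 late cycle genes in both libraries, and so was itself tied to this measure.

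**Figure D3:**
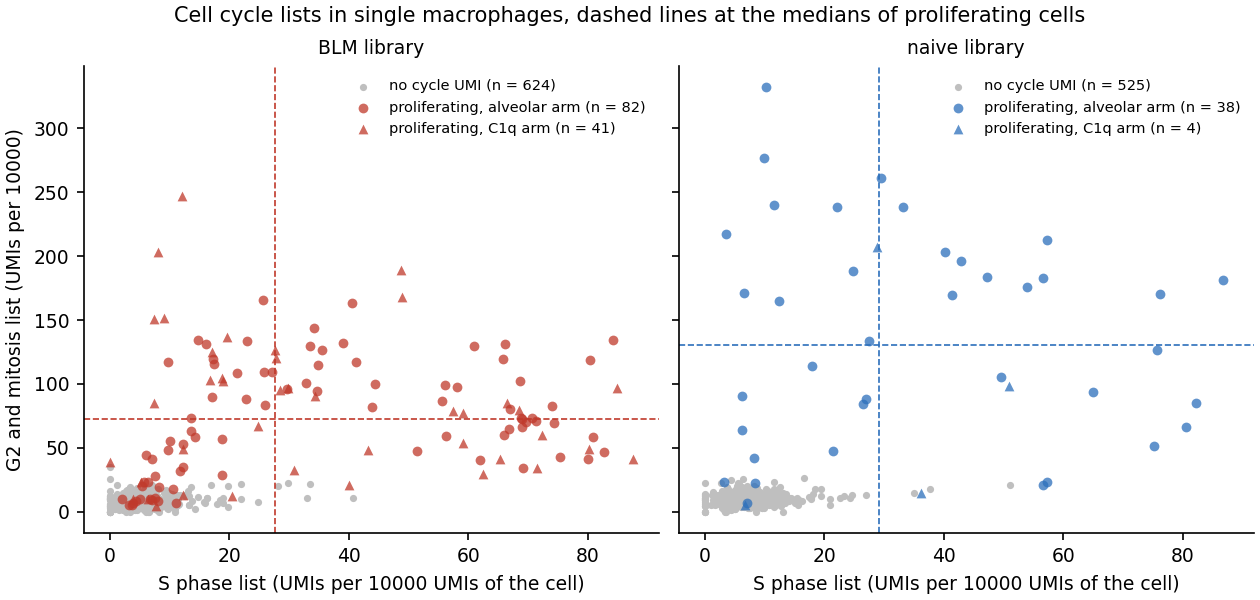
UMIs of the S phase list (x axis) and the G2 and mitosis list (y axis) per 10000 UMIs of each cell, in BLM (left) and naive (right); grey points are non-cycling macrophages, circles and triangles are proliferating cells of the alveolar and C1q arms, and dashed lines are the medians of the proliferating cells. The S phase medians are 27.6 and 29.1, while the mitotic medians are 72.2 in BLM and 130.2 in naive.

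Few non-cycling macrophages came near the members' medians. The cycle genes of the rule, which are tied to the mitotic list, chose the members and had no UMI in non-cycling macrophages. The counts and shares of this comparison are therefore a description and test nothing. In BLM 5 of 624, 0.801% (0.261 to 1.86), reached the members' median of the S phase list, and in naive 3 of 525, 0.571% (0.118 to 1.66). For the mitotic list the counts were 0 of 624, which allows up to 0.589%, and 0 of 525, which allows up to 0.7002%. The overlap was wider at the low end. The level below which the lowest 10% of members lay, 6.36 S phase UMIs per 10000 in BLM and 6.52 in naive, was reached by 32.5% of BLM and 50.1% of naive non-cycling macrophages. For the mitotic list that level was 10.2 and 22.2 per 10000, reached by 25.8% and 0.952%.

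None of the genes that stood highest or lowest between BLM and naive members was on a cell cycle list. Arg1, which breaks down arginine and is a gene of alternatively activated macrophages (chr10:24915221-24927484, minus strand, GRCm38), had 1470 UMIs in 91 of 123 BLM members, 695 CPM (660.00 to 732), and 0 UMIs in 42 naive members. Against a floor of 3 counts over the naive members it was at least 149-fold higher in BLM, and the end of the counting interval of the log2 ratio nearer 0 was 6.92. It was at 813 CPM in BLM and 0.199 CPM in naive non-cycling macrophages, and at 28.7 CPM in BLM B cells. Spp1 (osteopontin, chr5:104435118-104441050, plus strand), a secreted matrix protein, was at 4286 CPM (4198 to 4375) in BLM members and 294 CPM (254 to 339.6) in naive members. It was seen in 116 of 123 and 34 of 42 cells, and was at 5991 and 221 CPM in non-cycling macrophages.

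The other genes highest in BLM members were Mmp12, AA467197, Ccl8, Pdpn, Olfml3, Ldhb, Rnf128 and Lrg1. The elastase gene Mmp12 was at 365 CPM in BLM and 6.23 CPM in naive members, but 1 BLM cell held 43.8% of its UMIs. Pdpn (podoplanin) was at 214 CPM, in 90 of 123 BLM members, and 7.79 CPM, in 5 of 42 naive members. AA467197 was at 198 and 4.67 CPM, in 76 and 3 cells. The chemokine gene Ccl8 was at 134 and 3.12 CPM, in 16 BLM cells of which 1 held 36.4% of its UMIs. Olfml3 and Ldhb had no UMI in naive members and were at 61.00 CPM and 54.8 CPM in BLM, at least 13.1-fold and 11.7-fold higher against that floor, with interval ends nearer 0 of 3.39 and 3.23 on the log2 scale. In the recruited and scar-associated macrophage list 10 of 18 genes were called higher in BLM members and 0 lower, with a median of 1.21. Over all counted genes 4.57% were called higher and 6.9% lower, with a median of -0.14. The lists were drawn up with earlier results of these libraries known, so such counts are not independent evidence of a direction. Fn1 (fibronectin) was at 2478 and 435 CPM in BLM and naive members, with 41.6% of the naive UMIs in 1 cell. Cd63 was at 854 and 119.96 CPM and the lipid receptor gene Trem2 at 200.01 and 60.8 CPM. Gpnmb, of the same list, was at 443 CPM (415 to 472) in BLM and 514 CPM (460.1 to 573) in naive members, close together.

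Genes of resident alveolar macrophages made up part of the other end. Fabp1, Patj, Cidec, Retnla, Acaa1b, Krt19, Krt79, Acot1, Gal and Ear1 were the lowest in BLM members. The fatty acid binding protein gene Fabp1 was at 4.73 CPM (2.27 to 8.70) in 7 of 123 BLM members and 265 CPM (227 to 308) in 27 of 42 naive members. Cidec, a lipid droplet protein, was at 7.09 and 235 CPM, in 10 and 33 cells, and Krt19, a keratin, at 18.9 and 408 CPM, in 13 and 38 cells. Retnla was at 65.3 CPM in BLM and 1450.5 CPM in naive members, but 1 naive cell held 88.8% of its UMIs, and without that cell the naive level was 167 CPM. Over all counted genes 6.9% were called lower and 4.57% higher. Of the resident alveolar list 14 of 27 genes were called lower and 0 higher, with a median of -1.13. Without members that carried 5 or more UMIs of other lineages, which left 31 BLM and 10 naive members, 2 of the 14 genes of this list that could still be counted were called lower, with a median of -0.14, while the summed log2 ratio of the list was -0.64 against -0.36 with all members. Siglecf, the surface lectin of these cells, was at 52.96 and 241 CPM, and Pparg, the nuclear receptor that specifies them, at 80.4 and 215 CPM. Fabp4 was at 54.8 and 210.3 CPM and the cholesterol exporter gene Abcg1 at 319 and 1178 CPM. Chil3 was at 7266 CPM (7152 to 7382) and 7888 CPM (7672 to 8108).

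**Figure D4:**
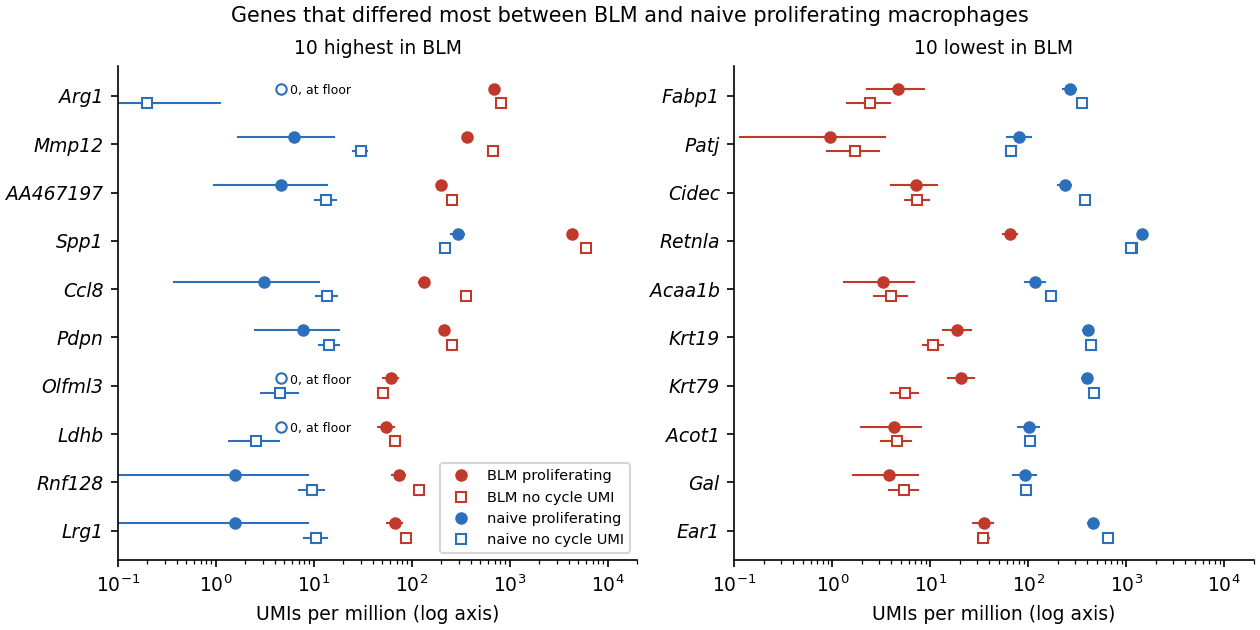
UMIs per 1000000 UMIs (CPM, log x axis) of the 10 genes highest and the 10 lowest in BLM against naive proliferating macrophages; filled circles are proliferating and open squares non-cycling macrophages, lines are exact 95% Poisson intervals cut off at the left edge, and a gene with 0 UMIs is drawn at the floor of 3 counts. Arg1 is at 695 CPM in BLM members and has no UMI in naive members, with 813 and 0.199 CPM in the non-cycling macrophages of BLM and naive.

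Non-cycling macrophages of the libraries differed in the same lists. There 5.21% of 7692 genes were called higher in BLM and 7.98% lower, with a median of -0.22. The scar-associated list had 11 of 19 genes called higher and the resident alveolar list 14 of 28 lower. Members and non-cycling cells came from the same libraries and so share whatever sets the libraries apart. Within the alveolar arm, 4.45% of 5399 genes were called higher in BLM members and 6.96% lower, with a median of -0.12. There the scar-associated list had 8 of 16 higher and 1 lower, and the resident list 12 of 26 lower and 1 higher. Arg1 was at 579.6 CPM in BLM with 0 UMIs in naive members of that arm, and Spp1 at 4128 and 319 CPM.

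Metabolic and inflammatory genes were compared next, where 4.57% of all counted genes were called higher in BLM members and 6.9% lower. Of the genes of cholesterol synthesis and uptake 11 of 14 were called higher in BLM members and 0 lower, with a median of 1.18. Within the alveolar arm 13 of 14 were called higher, where 4.45% of all genes were. Idi1, which makes a building block of the pathway, was at 183 CPM (166 to 203) in BLM and 42.1 CPM (27.7 to 61.2) in naive members. Sqle, which oxidises squalene, was at 81.3 CPM (69.6 to 94.4) and 18.7 CPM (9.66 to 32.7). In non-cycling macrophages 7 of 15 genes of this list were called higher, where 5.21% of all genes were, and Idi1 was at 160.3 and 61.97 CPM. Without members that carried 5 or more UMIs of other lineages 1 of the 2 genes of the list that could still be counted was called higher, and the summed log2 ratio was 0.78 against 1.43 with all members. In the C1q arm alone, with 4 naive members, 2 of 6 genes of the cholesterol list were called higher, where 16% of all genes were. There the summed log2 ratio was 0.045 (-0.39 to 0.51). Of the glycolysis and hypoxia list 6 of 15 were called higher in members, among them Pgam1 at 542 and 204 CPM and the glucose transporter gene Slc2a1 at 34.99 and 7.79 CPM. Of the inflammatory cytokine and chemokine list 7 of 16 were called higher and 2 lower.

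**Figure D5:**
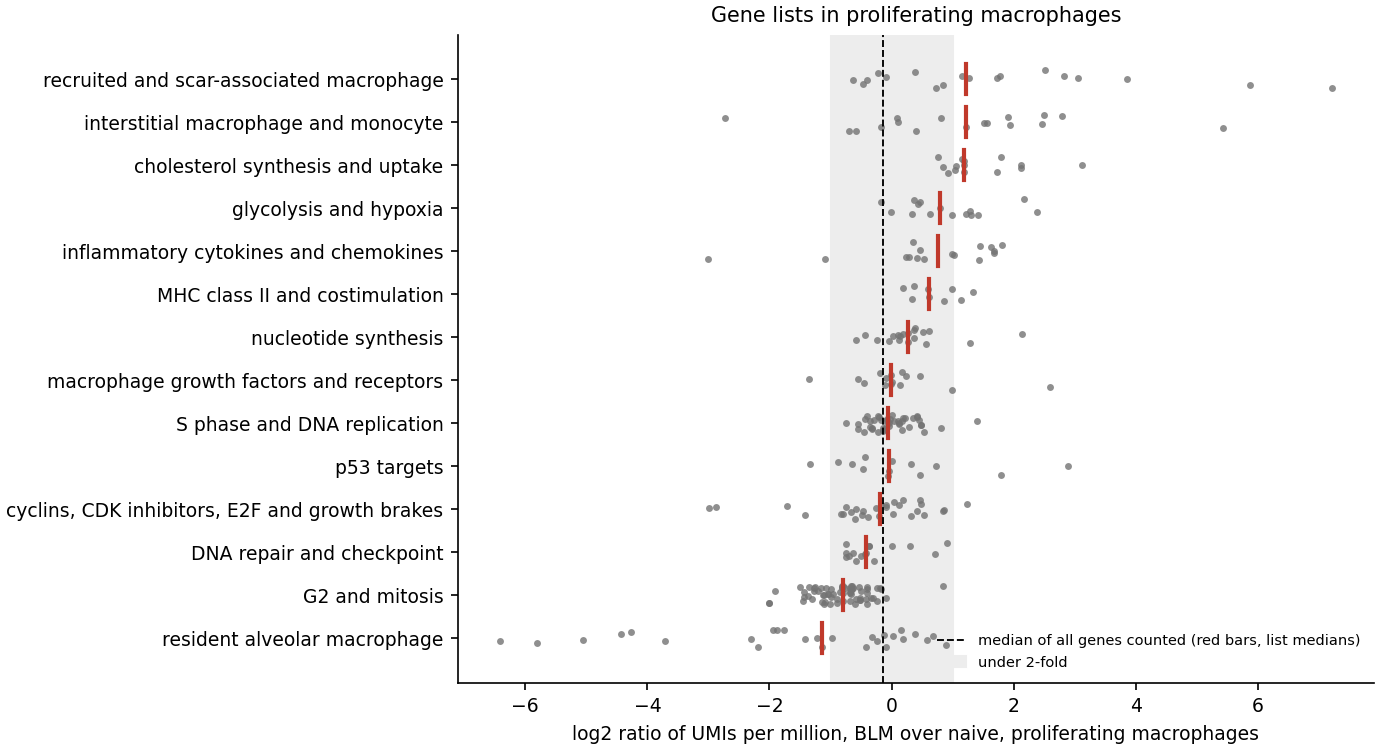
log2 ratio of CPM, BLM over naive, in proliferating macrophages (x axis) for the counted genes of the gene lists (rows); points are genes, red bars list medians, the dashed line the median of all counted genes and the grey band ratios under 2-fold. The scar-associated and cholesterol lists have medians of 1.21 and 1.18, the S phase list -0.05, the mitotic list -0.80 and the resident alveolar list -1.13.

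Among the cyclins, Ccnd2 differed between the libraries. It (chr6:127125162-127152193, minus strand, GRCm38) was at 53.4 CPM (44.03 to 64.2), in 39 of 123 BLM members, and at 425 CPM (376 to 479), in 40 of 42 naive members. Non-cycling macrophages had 43.6 and 669 CPM. Its kinase partner gene Cdk6 was at 48.2 and 159 CPM in members, Ccnd1 at 39.7 and 38.9 CPM and Ccnd3 at 171 and 122 CPM. The transcription factor gene Klf2 was at 20.8 and 153 CPM. Of the list of cyclins and growth brakes 1 of 30 genes was called higher in BLM members and 4 lower. The shares over all counted genes were 4.57% higher and 6.9% lower.

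Of the list of growth factors and their receptors 1 of 15 genes was called higher in BLM members and 1 lower. Over all 6362 counted genes these shares were 4.57% and 6.9%. Igf1, a growth factor made by macrophages, was at 207 CPM (188 to 227) in BLM and 34.3 CPM (21.5 to 51.9) in naive members. Csf1, which encodes M-CSF, had 16 UMIs in BLM and 2 in naive members, too few to rank. Csf1r was at 365 and 184 CPM and Csf2rb at 856 and 729 CPM.

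Monocyte, antigen presentation and costimulatory genes were set beside all counted genes, of which 4.57% were called higher and 6.9% lower, with a median of -0.14. The interstitial macrophage and monocyte list had 9 of 17 genes called higher in BLM members and 1 lower (Plac8), with a median of 1.22. Ccr2, the receptor that brings monocytes to tissue, was at 290.3 CPM in 91 of 123 BLM members and 165 CPM in 13 of 42 naive members, with 33.02% of the naive UMIs in 1 cell, and Ly6c2 at 33.1 and 37.4 CPM, with 58.6% of the BLM UMIs in 1 cell. Of the MHC class II and costimulation list 2 of 9 genes were called higher in members, against 7 of 9 in non-cycling macrophages, where 5.21% of all genes were. All 9 log2 ratios of the members were above 0, with a median of 0.61. Within the alveolar arm 4 of 9 were called higher in members, where 4.45% of all genes were, with a median of 0.999. Cd74, the invariant chain, was at 2312 and 1162 CPM in members and 3584 and 1048 CPM in non-cycling cells, and at 7206 and 6611 CPM in B cells, which express it. Cd86 was at 89.8 and 35.8 CPM, with 73.9% of the naive UMIs in 1 cell, and Cd80 at 35.5 CPM (27.9 to 44.5) and 31.2 CPM (19.03 to 48.1).

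Inside the BLM library the arms of the members were set side by side, 82 alveolar and 41 C1q cells. The arms were cut by rule genes, so these values are a description. Of 5362 genes 3.41% were called higher in the alveolar arm and 4.18% lower. The S phase list was at 3578 and 3461 CPM and the mitotic list at 6997 and 8655 CPM. In the resident alveolar list 11 of 22 genes were called higher in the alveolar arm, and in the interstitial and monocyte list 13 of 17 lower. The cholesterol list had 5 of 14 higher, at a summed 1604 and 804 CPM. Spp1 was at 4128 and 4615 CPM and Arg1 at 579.6 and 935 CPM, so both were found in each arm of the dividing cells.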

How the data were processed

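Single-cell RNA was measured in 2 libraries, 1 per group, so no test, p-value or replicate error was possible. The authors deposited a table of counts (UMIs per gene and cell, as the BD Rhapsody WTA analysis pipeline 1.8 gave them) for each library, with reads aligned to GRCm38 and GENCODE vM19 per the submitters' processing notes. The deposited counts were not normalized. Depth was 22490782 UMIs over 4714 barcodes in BLM and 18019004 over 4062 in naive. UMIs were summed over the cells of a group and given per 1000000 UMIs of those cells (CPM), with exact Poisson intervals, and shares with exact Clopper-Pearson intervals. Ratios were described as log2 ratios of CPM, with a gene at 0 set to a floor of 3 counts over the group. Named genes were the 10 highest and 10 lowest between the libraries and, against non-cycling macrophages, the 6 highest of each cycle list, the 8 highest outside them and the 8 lowest in each library, by the interval end nearer 0, plus a set list. Other genes were named as examples of their list after their values were seen. Some genes that the rule names are not reported here. The members, lists and rules were chosen with earlier results of these data known. Doublets were scored with Scrublet (scanpy 1.11.5), whose automatic threshold marked 0.177% of BLM cells and so did not work there. No doublets were removed, and leaving out the top 3% of scores was an alternative. That top 3% held 7 of 123 members and 13 of 624 non-cycling macrophages in BLM, and 1 of 42 and 24 of 525 in naive. Analyses used Python 3.11.15, numpy 2.4.6, scipy 1.17.1 and pandas 2.3.3, and scripts were tested on simulated data. Gene positions are from GENCODE vM21.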

Additional observations from a re-analysis of the deposited data

How the results depend on the processing

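Each library was a single pool of mice, so differences between mice and between preparations could not be measured. No paired analysis was possible because each group had 1 library, and for the same reason none could be left out. The naive C1q arm held 4 members, and leaving out cells with 5 or more marker UMIs of other lineages kept 31 BLM and 10 naive members, so values under these settings rest on few cells. Of 2213 gene values recomputed, 1798 moved by less than their interval, 402 moved further and 13 reversed. Of the summary values 174 stayed and 49 moved. The cause was not tested. Thinning to 5000 UMIs, a limit of 10 cycle UMIs, not counting Xbp1 and Epcam among the other lineages, and leaving out the cell richest in each gene were chosen after seeing the data. BLM macrophages were proliferating, in percent, at 10.05 with a limit of 6 cycle UMIs, 7.93 without other lineages, 8.28 with a limit of 10 cycle UMIs, 3.92 at 2000 UMIs and 8.50 at 5000 UMIs. The alveolar arm held, in percent of BLM members, 41.9 without other lineages. Naive macrophages were proliferating, in percent, at 3.96 without other lineages but Xbp1 and Epcam and 3.40 at 2000 UMIs. The log2 ratio of the proliferating shares, 1.10 at full depth, was 0.19 without other lineages, 1.42 without other lineages but Xbp1 and Epcam, 0.21 at 2000 UMIs and 0.83 at 5000 UMIs. Genes called higher in BLM than naive members were 291 of 6362 (4.57%) in the main setting. They numbered 658 of 9769 (6.74%) with a 10-UMI minimum and none on cells. Genes called lower in BLM than naive members were 439 of 6362 (6.9%) in the main setting and 127 of 1598 (7.95%) without other lineages. They numbered 216 of 2584 (8.36%) in the C1q arm alone and 1221 of 9769 (12.5%) with a 10-UMI minimum and none on cells. Without other lineages but Xbp1 and Epcam they numbered 279 of 3508 (7.95%). For the lists below, the share called over all genes counted in the same setting is in brackets. Resident alveolar macrophage genes called lower in BLM than naive members were 2 of 14 without other lineages (7.95%) and 2 of 13 in the C1q arm alone (8.36%). Without other lineages but Xbp1 and Epcam they were 9 of 21 (7.95%). Cholesterol synthesis and uptake genes called higher in BLM than naive members were 1 of 2 without other lineages (14.7%) and 2 of 6 in the C1q arm alone (16%). G2 and mitosis genes called lower in BLM than naive members were 13 of 64 without cells with a Cd3 UMI (6.32%) and 2 of 42 in the C1q arm alone (8.36%). S phase sums had log2 ratios, BLM over naive members, of -0.11 in the C1q arm alone, 0.048 with a limit of 10 cycle UMIs and 0.048 without other lineages but Xbp1 and Epcam. Mitotic sums had log2 ratios, BLM over naive members, of -0.66 without cells with a Cd3 UMI, -1.45 without other lineages, -0.89 in the alveolar arm alone, 0.23 in the C1q arm alone, -0.83 with equal weight for each cell, -0.66 with a limit of 10 cycle UMIs, -1.17 without other lineages but Xbp1 and Epcam, -0.79 at 2000 UMIs and -0.85 at 5000 UMIs. For most counts against non-cycling cells the number of genes counted, which can change with the setting, is not given, so they are not shares. In the main setting 7.11% of 8161 genes were called higher in BLM members and 1.42% lower, and in naive 5.88% and 2.28% of 7838. Genes called higher in BLM members than BLM non-cycling cells numbered 222 without other lineages, 977 with a 10-UMI minimum and none on cells and 375 without other lineages but Xbp1 and Epcam. Genes called lower in BLM members than BLM non-cycling cells numbered 75 with a limit of 3 cycle UMIs and 223 without other lineages. They numbered 207 of 6752 (3.07%) in the C1q arm alone, 541 with a 10-UMI minimum and none on cells and 207 with a limit of 10 cycle UMIs. Genes called higher in naive members than naive non-cycling cells numbered 151 without other lineages, 79 in the C1q arm alone and 1088 with a 10-UMI minimum and none on cells. Genes called lower in naive members than naive non-cycling cells numbered 274 without other lineages, 530 with a 10-UMI minimum and none on cells, 280 with a limit of 10 cycle UMIs and 627 without other lineages but Xbp1 and Epcam. Member values between the libraries that reversed, as log2 ratios, were in the C1q arm alone Ccnb1 0.37, Csf1 -1.95, Lrg1 -0.32 and Pparg 1.505, without other lineages but Xbp1 and Epcam Cd86 -0.081, Csf1 -1.13 and Retnla 0.97, without other lineages Csf1 -1.51 and Retnla 1.82. Member values against non-cycling cells in BLM that reversed, as log2 ratios, were without other lineages Apoe 0.11. Member values against non-cycling cells in naive that reversed, as log2 ratios, were without other lineages Klc4 0.64, in the C1q arm alone Klc4 0.79 and Mdp1 1.05.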
